A study of Mus musculus with 15 samples.

Results

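Secondary granule and late neutrophil genes were followed here in eosinophils grown from mouse bone marrow: Ngp, Ltf, Camp, Lcn2, Mmp8, Mmp9, S100a8, S100a9, Retnlg and Ly6g. The 10 genes were chosen by name from a total of 25101 genes in the count tables, and each was present in them. The series holds 15 samples of such cultures, of which the 2 RNA-seq libraries of BALB/c cells carry the expression data used here. Unselected bone marrow cells were grown for 14 days. They first received SCF and FLT3L (100 ng/mL of both, days 0 to 3) and then interleukin 5 alone (10 ng/mL, from day 4 onwards). No sorting step is described, so what was sequenced was a whole culture. Beside them stood 1 neutrophil library and 1 macrophage library from other studies, whose reads the submitters counted again. No source used here gives their strain, tissue, age or treatment. The tables of both give a run number and name no cell type. The cell type used was the one stated for each run number at the outset. Each number lies close to those of peak lists named for that cell type. The cell types were also set against markers. All differences from these libraries lack a replicate check, and cell type and study cannot be told apart in them, so no test was made.

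Neutrophils make their granules in waves. Primary granules with myeloperoxidase and elastase are filled in promyelocytes, secondary granules with lactoferrin, cathelicidin and lipocalin 2 in myelocytes, and gelatinase granules later, while the messages for many granule proteins are largely shut off before the cell leaves the marrow. The transcription factor C/EBP epsilon drives secondary granule genes in neutrophils and is also needed for eosinophil granules, and both lineages depend on the ETS factor PU.1. S100a8 and S100a9 encode the subunits of calprotectin, an abundant cytosolic protein of neutrophils, and Ly6g encodes a surface protein used to gate mouse neutrophils.

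The 10 genes were all detected in both eosinophil libraries, and they differed in how each stood against the neutrophil library. Ngp, Retnlg and Ly6g stood at least 2-fold higher in both eosinophil libraries than in the neutrophil library. S100a8 and S100a9 lay within 2-fold of it in both libraries. Ltf, Camp, Lcn2, Mmp8 and Mmp9 stood at least 2-fold lower. When the libraries were scaled to the counts of genes spanning up to 5 kb, a scaling chosen after seeing the data, the 5 lower genes were still 5, and 0 of the 10 genes were 2-fold higher. All 10 were at 1 CPM (the count of a gene over the total of its file, per 1000000) or more in both eosinophil libraries, as were 47.5% of all genes. At least 2-fold lower than the neutrophil library in both were 5 of the 10, against 23.9% of 12978 genes, and at least 2-fold higher were 3 of the 10, against 29.9%. The share of higher genes was thus at the background, and that of lower genes was above it. The background takes in genes low in the neutrophil library, whereas the 10 are neutrophil genes by choice, at 81.2 CPM or more there. Over the 366 genes at 100 CPM or more there and at least 10-fold above the macrophage library, the median eosinophil level was 29.5% of the neutrophil level. Those genes were picked for a high neutrophil level, which is the divisor of this ratio. Camp, S100a8, S100a9 and Ngp do not meet both limits. How many of the 366 were 2-fold lower in both eosinophil libraries was not counted. The count of lower genes is therefore not shown to set the 10 apart from such genes, or to match them. All 10 were at least 2-fold above the macrophage library, as were 25.3% of 12745 genes.

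**Figure D1:**
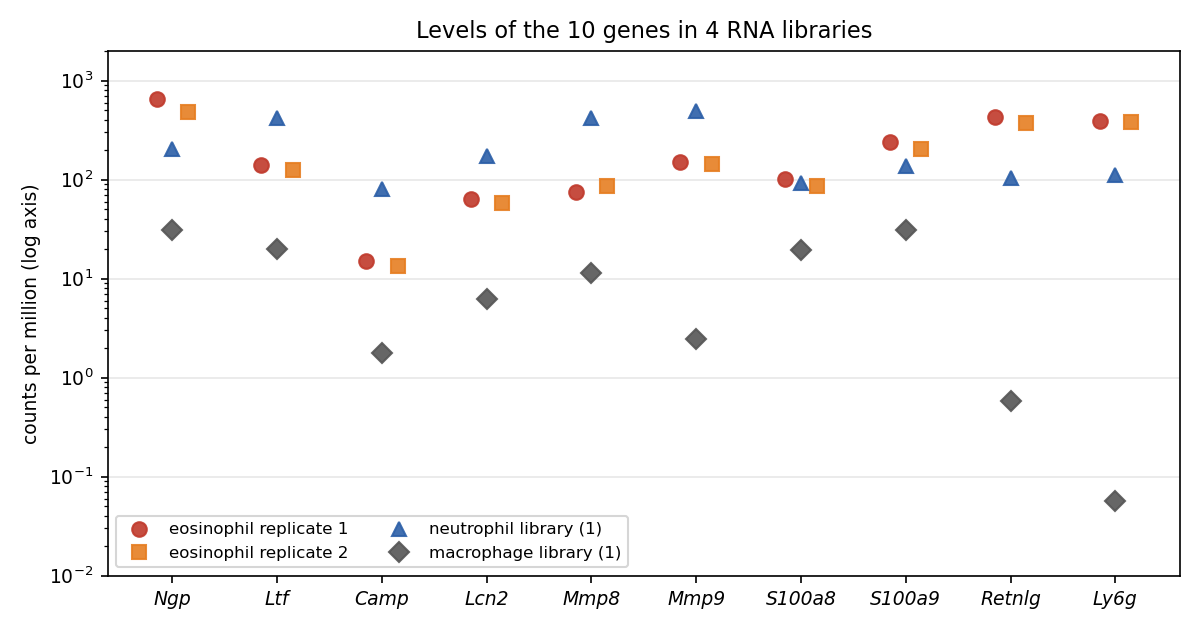
CPM (log axis) of the 10 genes in eosinophil replicates 1 and 2, the neutrophil library and the macrophage library, 1 point per library. The eosinophil points lie above the neutrophil point for Ngp, S100a9, Retnlg and Ly6g, around it for S100a8 and below it for the other 5 genes, and the macrophage point is the lowest for each gene.

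The sequences before the start sites of 6 of these genes are shown: the 3 genes of highest and the 3 of lowest level relative to the neutrophil library among those with a RefSeq window. Each is the 250 bases before the annotated start, 5′ to 3′ on the strand of the gene, in the build GRCm38.p6. Capitals mark matches, on either strand, of the C/EBP-like letters TTGCNNAA and of the PU.1 core letters GAGGAAGT.
Ngp, chr9:110419558-110419807, plus strand: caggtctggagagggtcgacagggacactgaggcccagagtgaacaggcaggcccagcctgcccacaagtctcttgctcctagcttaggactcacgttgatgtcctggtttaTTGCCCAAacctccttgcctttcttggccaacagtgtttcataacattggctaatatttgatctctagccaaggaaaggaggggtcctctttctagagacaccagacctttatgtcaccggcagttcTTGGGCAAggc
Retnlg, chr16:48872358-48872607, plus strand: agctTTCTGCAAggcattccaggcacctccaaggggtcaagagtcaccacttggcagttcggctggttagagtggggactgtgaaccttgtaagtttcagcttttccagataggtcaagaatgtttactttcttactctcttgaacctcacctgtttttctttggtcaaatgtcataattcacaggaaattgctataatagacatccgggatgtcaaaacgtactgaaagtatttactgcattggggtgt
Ly6g, chr15:75155011-75155260, plus strand: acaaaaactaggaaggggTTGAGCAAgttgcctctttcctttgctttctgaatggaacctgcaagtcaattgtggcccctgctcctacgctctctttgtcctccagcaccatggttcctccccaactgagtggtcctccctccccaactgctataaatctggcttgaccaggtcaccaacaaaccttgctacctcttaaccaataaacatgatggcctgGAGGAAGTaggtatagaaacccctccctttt
Ltf, chr9:111019042-111019291, plus strand: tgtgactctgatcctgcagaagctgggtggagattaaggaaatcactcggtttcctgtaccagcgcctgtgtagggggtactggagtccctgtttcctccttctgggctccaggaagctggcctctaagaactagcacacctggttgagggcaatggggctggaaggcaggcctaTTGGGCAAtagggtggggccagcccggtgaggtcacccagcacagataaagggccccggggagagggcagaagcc
Mmp8, chr9:7558179-7558428, plus strand: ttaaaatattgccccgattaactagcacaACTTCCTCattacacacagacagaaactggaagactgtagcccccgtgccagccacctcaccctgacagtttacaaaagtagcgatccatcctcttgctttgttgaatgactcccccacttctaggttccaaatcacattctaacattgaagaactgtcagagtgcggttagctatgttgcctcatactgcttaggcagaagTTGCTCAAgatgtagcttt
Camp, chr9:109849457-109849706, minus strand: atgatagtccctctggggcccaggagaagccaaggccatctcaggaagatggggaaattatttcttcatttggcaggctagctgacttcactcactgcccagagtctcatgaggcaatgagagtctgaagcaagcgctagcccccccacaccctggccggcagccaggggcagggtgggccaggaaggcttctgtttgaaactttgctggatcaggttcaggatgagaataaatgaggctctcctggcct

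Windows were at hand for 9 of the 10 genes, with 2 for Ly6g, of which the first is shown. The letters TTGCNNAA occurred in windows of 7 of these 9 genes, namely Ngp, Ltf, Lcn2, Mmp8, S100a9, Retnlg and Ly6g, against 9.56% of all 32851 windows. In Ngp they began 138 and 11 bases before the start, in Ltf 75, in Mmp8 19 and in Retnlg 246 bases before it. The looser letters TTNNGNAA were planned as the main ones, and TTGCNNAA as an alternative. These looser letters take in every match of TTGCNNAA on one strand or the other. They occurred in 8 of the 9, against 36.8% of all windows, and Camp was the one without them. GAGGAAGT occurred in Mmp8, S100a8 and Ly6g, against 2.44% of all windows. The 3 genes highest relative to the neutrophil library and the 5 lowest both include genes with TTGCNNAA. A match describes letters only and shows no binding.

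Ngp, which encodes neutrophilic granule protein, a relative of the cystatins and cathelicidins, reached 658 and 482 CPM in eosinophil replicates 1 and 2, 205 CPM in the neutrophil library and 30.8 CPM in the macrophage library. Both eosinophil libraries were the higher ones, and Ngp also differed most between them, by 1.37-fold. Retnlg, the gene of a secreted resistin-like protein of myeloid cells, stood at 426 and 373 CPM in the eosinophil libraries, 105 CPM in the neutrophil library and 0.580 CPM in the macrophage library. Ly6g stood at 388 and 381 CPM, against 111 CPM in the neutrophil library and 0.0561 CPM, which is 6 reads, in the macrophage library. For these 3 genes the means of the eosinophil libraries were 2.78-fold, 3.81-fold and 3.45-fold above the neutrophil library.

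Relatives of Ly6g and Retnlg went either way. Ly6c2 stood at 18.2 and 13.5 CPM in the eosinophil libraries and 115 CPM in the neutrophil library, and Ly6c1 at 13.2, 12.1 and 38.3 CPM. Both were lower in the eosinophil libraries. Ly6e was higher there, with 552 and 568 CPM against 162 CPM, as was Retnla, the neighbour of Retnlg on chromosome 16, with 182 and 143 CPM against 4.38 CPM. No source used here says how reads shared within these families, or among the S100a genes, were assigned, and the levels of Ly6g, Retnlg, S100a8 and S100a9 carry that uncertainty.

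S100a8 stood at 102 and 86.0 CPM in the eosinophil libraries, 92.2 CPM in the neutrophil library and 19.6 CPM in the macrophage library. Its eosinophil libraries lay on either side of the neutrophil library. S100a9 stood at 241 and 203 CPM, against 136 and 31.2 CPM, and both eosinophil libraries were above the neutrophil library. The genes lie next to each other on chromosome 3. The level of S100a8 relative to S100a9 was 0.421 and 0.424 in the eosinophil libraries, 0.678 in the neutrophil library and 0.628 in the macrophage library, so that the eosinophil libraries were close to each other and below both others.

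The remaining secondary granule genes were lower than in the neutrophil library. Ltf, which encodes the iron-binding protein lactoferrin, stood at 142 and 126 CPM in the eosinophil libraries, 417 CPM in the neutrophil library and 19.7 CPM in the macrophage library. Camp, the gene of the antimicrobial peptide cathelicidin, stood at 15.2 and 13.3 CPM, against 81.2 and 1.79 CPM. Both genes kept the same order of libraries, with the eosinophil libraries between the outside ones. Lcn2, whose product lipocalin 2 binds bacterial siderophores, stood at 62.9 and 57.7 CPM in the eosinophil libraries, 173 CPM in the neutrophil library and 6.20 CPM in the macrophage library.

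The metalloproteinase genes showed the same order. Mmp8, the neutrophil collagenase of secondary granules, stood at 74.7 and 85.4 CPM in the eosinophil libraries, 418 CPM in the neutrophil library and 11.4 CPM in the macrophage library. Mmp9, the gelatinase of the later granules, stood at 151 and 144 CPM, against 495 and 2.44 CPM. Of the 10 genes Mmp8 alone was higher in replicate 2. The other 9 were higher in replicate 1, as were 65.9% of 11908 detected genes. Of the genes detected, 3.46% were more than 2-fold apart between the eosinophil libraries, and none of the 10 was. The labels do not say whether the libraries came from separate cultures or animals, so this spread may be technical.

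Added up, the 10 genes took 0.226% and 0.195% of the counts in the eosinophil libraries, 0.223% in the neutrophil library and 0.0124% in the macrophage library. The sums of the eosinophil and neutrophil libraries were thus alike, and their make-up was not. Ngp, Retnlg and Ly6g gave 29.1%, 18.9% and 17.2% of these reads in replicate 1 and 24.7%, 19.1% and 19.5% in replicate 2. In the neutrophil library they gave 9.18%, 4.69% and 4.99%. Mmp9, Mmp8 and Ltf led there with 22.2%, 18.7% and 18.7%, against 6.66%, 3.30% and 6.26% in eosinophil replicate 1. Among the 10 genes these have the longest spans, 15.5, 10.1 and 23.5 kb. Reads in the neutrophil library rose with span, as given below, and gene length does not cancel between genes. The part of span in this make-up was not tested. The macrophage library had yet another make-up, led by S100a9 with 25.2%, Ngp with 24.9% and Ltf with 16.0%.

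The level of a gene in the eosinophil library as a percentage of its level in the neutrophil library is the share of all counts that neutrophil RNA like that library would have to supply if no other cell in the culture held the message. Gene length cancels in this ratio where the libraries treat length alike. A share of counts is not a share of cells: in bulk libraries fewer cells of a type and less RNA per cell cannot be told apart.

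Gene by gene, these implied shares ran from 17.6% to 381%, a 21.7-fold range that no scaling of the libraries can alter. Camp gave the lowest, 17.6% ± 1.64 (mean ± SD, n = 2 eosinophil libraries, as for all shares that follow), and Mmp8 was next with 19.2% ± 1.82. These lowest values overlapped between the libraries. Mmp9 gave 29.8% ± 0.889, Ltf 32.1% ± 2.71 and Lcn2 34.9% ± 2.13. These 3 genes lay above Camp and Mmp8 in both libraries and held this order in both. Mmp9, at 30.4% and 29.1%, lay below Lcn2, at 36.4% and 33.4%, with no overlap between the libraries, while Ltf, at 34.0% and 30.1%, overlapped both.

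The other 5 genes stood at or above the level of the neutrophil library. S100a8 gave 102% ± 12.004 and S100a9 163% ± 20.1. Ngp gave 278% ± 60.9, Ly6g 345% ± 4.59 and Retnlg 381% ± 35.6, in that order in both libraries. For 5 of the 10 genes the mean share exceeded 100%, as it did for 39.2% of the 10938 genes at 1 CPM or more in the neutrophil library. The median over the 10 genes was 68.3%, beside 77.8% over those genes and 29.5% over the 366 genes at 100 CPM or more in the neutrophil library and at least 10-fold above the macrophage library.

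Counting error was small beside this range. For Ngp in replicate 1 the share was 321%, with a 95% exact (Clopper-Pearson) interval of 304 to 340%, and in replicate 2 it was 235%, with 222 to 249%. For Camp, the gene with the fewest reads in the eosinophil and neutrophil libraries, the intervals were 16.6 to 21.1% and 14.4 to 18.7%. The intervals of Camp in both libraries lay below those of Ltf, Lcn2 and Mmp9. Reads are not independent molecules, so these intervals cover counting error only.

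At the lowest share among the 10 genes, that of Camp, neutrophil RNA like the outside library would supply 91.7% of the mean Mmp8 level, 59.0% of Mmp9, 54.8% of Ltf and 50.3% of Lcn2. It would supply 17.3% of S100a8 and 10.8% of S100a9. For Ngp, Ly6g and Retnlg it would supply 6.32%, 5.09% and 4.61%. Other late neutrophil genes, given below, implied lower shares, down to 0.608% for Ceacam10. At such a share all these parts would be smaller, and they were not computed.

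**Figure D2:**
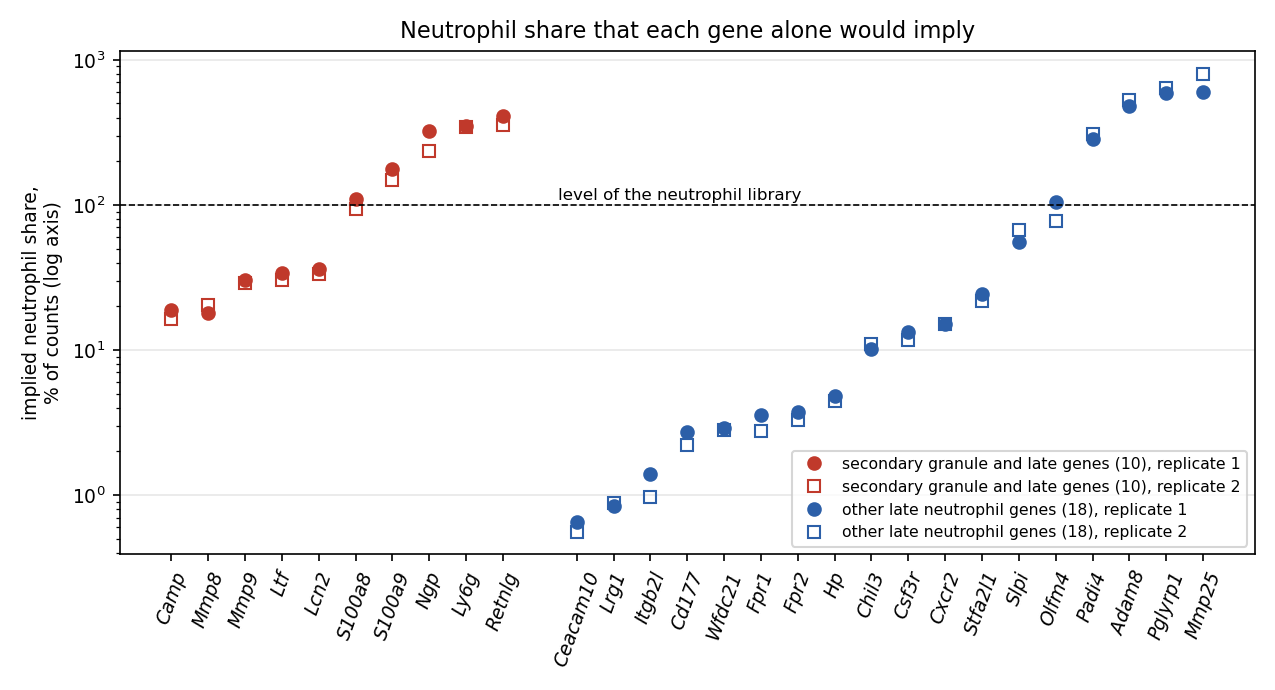
Neutrophil share in percent of counts (log axis) that each gene alone would imply, for eosinophil replicate 1 (filled circles) and replicate 2 (open squares), for the 10 genes and for 18 other late neutrophil genes, ordered by their mean. The dashed line is the level of the neutrophil library. The 10 genes run from 17.6% to 381%, and the other late genes from 0.608% to 700.4%.

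A list of 19 other late neutrophil genes was measured the same way. Its median implied share was 11.5% over the 18 genes that had reads in the neutrophil library (12.4% with G0s2, which had none there, counted as highest), beside 68.3% for the 10 genes. The lists also differed in gene span, with a median of 7.48 kb and 3 of 18 genes up to 5 kb, against 3.15 kb and 7 of the 10 genes, and the part of span in this difference was not tested. Of the 19 genes, 18 were detected in both eosinophil libraries, against 47.5% of all genes. At least 2-fold below the neutrophil library were 12, against 23.9% of 12978 genes, and at least 2-fold above it 5, against 29.9%. Added up, the list stood at 105% and 112% of its sum in the neutrophil library, so it was not lower as a whole. The genes with the highest eosinophil levels were Adam8, a surface metalloproteinase, at 2194 ± 151 CPM, Padi4, which citrullinates histones, at 779 ± 40.4 CPM, and Pglyrp1, a peptidoglycan-binding granule protein, at 723 ± 44.5 CPM. They implied 501%, 296% and 617%. In the macrophage library the shares of this list had a median of 0.795%. Some of its genes stood higher there, with 123% for Adam8 and 3.87% for Hp.

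At the other end, 8 of the 18 genes implied less than 5%, and these were named after their values were seen. Ceacam10 had 34 and 22 reads in the eosinophil libraries and 823 in the shallower neutrophil library, an implied share of 0.608% ± 0.0667. Lrg1, a secreted glycoprotein gene, gave 0.863% ± 0.0253 and Itgb2l, an integrin chain of late neutrophils, 1.18% ± 0.309. The neutrophil surface antigen gene Cd177 gave 2.47% ± 0.376, Wfdc21 2.86% ± 0.0471, the formyl peptide receptor genes Fpr1 and Fpr2 3.16% ± 0.571 and 3.52% ± 0.327, and the haptoglobin gene Hp 4.63% ± 0.219. Of the 18 genes, 7 implied a higher share than Camp and Mmp8, 6 a higher share than Mmp9, Ltf and Lcn2, 4 a higher share than S100a8, S100a9 and Ngp, and 3 a higher share than Ly6g and Retnlg.

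The chemokine receptor gene Cxcr2 and the G-CSF receptor gene Csf3r, both named after their values were seen, implied 15.2% ± 0.0296 and 12.4% ± 1.10, below Camp and Mmp8 in both libraries. Csf3r also stood at 171 CPM in the macrophage library, above its eosinophil mean of 70.7 CPM, whereas Cxcr2 stood at 0.411 CPM there. At the median share of the late list, neutrophil RNA would supply 65.4% of the Camp level, 59.96% of Mmp8, 35.8% of Ltf, 4.13% of Ngp, 3.33% of Ly6g and 3.01% of Retnlg. Primary granule genes gave no lower estimate. Of 6 such genes 5 were detected in both eosinophil libraries, the highest being Mpo at 25.1 ± 2.20 CPM, Ms4a3 at 6.81 ± 2.34 CPM and Prtn3 at 6.51 ± 1.66 CPM, which implied 943%, 53.7% and 25.2%. The neutrophil library held 17 reads of Mpo.

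The same calculation in the macrophage library also gave unequal shares. S100a9 implied 22.9%, S100a8 21.2% and Ngp 15.02%, while Ltf implied 4.74%, Lcn2 3.59%, Mmp8 2.72% and Camp 2.20%. Retnlg, Mmp9 and Ly6g implied 0.553%, 0.493% and 0.0504%. Retnlg and Ly6g, the highest of the 10 in the eosinophil libraries by this measure, were thus among the 3 lowest in the macrophage library. The level of Ltf relative to Ngp was 0.215 and 0.261 in the eosinophil libraries, 2.03 in the neutrophil library and 0.641 in the macrophage library. Ltf spans 23.5 kb and Ngp 3.2 kb, and the part of span in this ratio was not tested.

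Regulators of granule genes were detected in 8 of 9 cases in the eosinophil libraries. Cebpe, which encodes C/EBP epsilon, stood at 461 and 511 CPM, against 95.3 CPM in the neutrophil library and 0.898 CPM in the macrophage library. Spi1, which encodes PU.1, stood at 411 and 436 CPM, against 204 and 365 CPM. Both were higher in the eosinophil libraries than in either outside library. Cebpd was the one regulator at least 2-fold lower than in the neutrophil library, with 14.7 and 13.5 CPM against 136 CPM. Cebpa stood at 104 ± 6.48, Cebpb at 178 ± 23.3, Runx1 at 127 ± 16.6, Cux1 at 353 ± 25.2 and Gfi1 at 3.18 ± 0.414 CPM (mean ± SD, n = 2), all within 2-fold of the neutrophil library. Lef1 had 4 and 2 reads.

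The neutrophil library differed from the others in ways that touch every implied share. It was the shallowest, with 6390310 counts against 40306679 and 30465490 in the eosinophil libraries and 106940777 in the macrophage library. Its highest gene, Sorl1, reached 1196 CPM, whereas the highest genes of the others reached 4122 to 8057 CPM. The median span of its 20 highest genes was 106 kb, against 15.6 kb in each eosinophil library and 22.5 kb in the macrophage library. Genes spanning up to 5 kb held 6.03% of its counts, against 10.7 to 12.2% in the others, and Gapdh stood at 19.2 CPM there, against 403 to 1557 CPM.

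Among the 10 genes, reads in the neutrophil library rose with gene span, from 519 for Camp and 589 for S100a8 to 3166 for Mmp9, with a Spearman rho of 0.855 over the 10 genes. In the eosinophil libraries rho was 0.0545 and 0.115, and in the macrophage library 0.0909. Each rho is over genes of a single library and is a description. The median ratio of eosinophil to neutrophil level was also taken by span, over genes at 1 CPM or more in each library compared. It was 1.01 for spans up to 2 kb, 1.09 for 2 to 5 kb and 0.910 for 5 to 20 kb. For 20 to 100 kb it was 0.747, and above 100 kb, where 0 of the 10 genes lie, it was 0.675. The median ratio of eosinophil to macrophage level was 1.07, 0.990, 0.926, 0.974 and 0.986 in the same order. The implied share itself had a Spearman rho of -0.321 with span over the 10 genes, and the part of span in it was not tested further. Set against the counts of genes up to 5 kb instead of all counts, the shares were about a factor of 0.499 of those given: S100a8 and S100a9 then fell below 100%, Ngp, Ly6g and Retnlg stood at 139%, 172% and 190% and were no longer 2-fold higher, and Camp was the lowest at 8.76%.

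**Figure D3:**
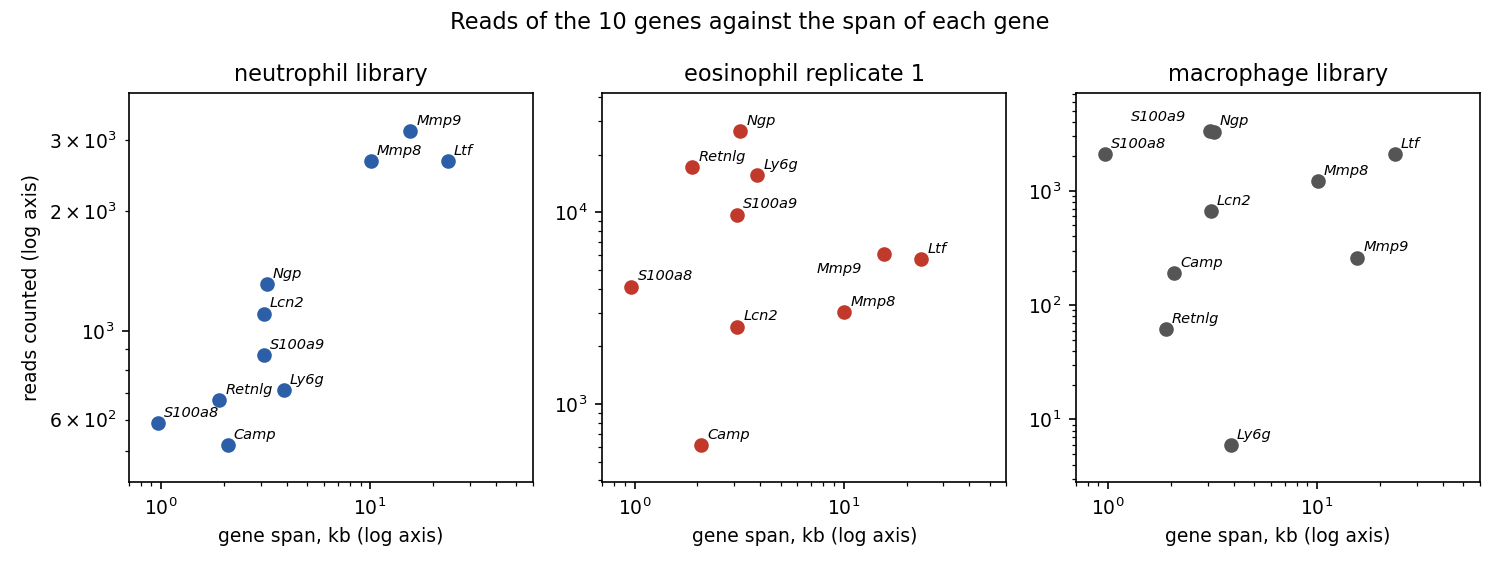
Reads counted for each of the 10 genes (log axis) against the span of the gene in kb (log axis), in the neutrophil library, eosinophil replicate 1 and the macrophage library. Reads rise with span in the neutrophil library and show no such order in the other panels.

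Marker lists held genes of several cell types in each library. In the eosinophil libraries all 9 eosinophil markers were detected, led by Prg2 at 4053 ± 202, Epx at 2766 ± 166 and Ear1 at 1683 ± 24.9 CPM. The neutrophil library held 18 of the 19 late neutrophil genes at 1 CPM or more, against 8 in the macrophage library. Both eosinophil libraries also held 18, so this count does not tell them from the neutrophil library. The list summed to 4281 CPM there, and to 4508 and 4799 CPM in the eosinophil libraries. Csf3r stood at 568 and Cxcr2 at 402 CPM in the neutrophil library. Their eosinophil means were 70.7 and 61.0 CPM, and their macrophage levels 171 and 0.411 CPM. The neutrophil library also held all 9 eosinophil markers, at 0.351% to 17.3% of their eosinophil level with a median of 3.65%. Of 11 macrophage markers 10 were detected in the eosinophil cultures, as were 47.5% of all genes, with Marco at 0 reads. The highest were Adgre1 at 1458 ± 142, Csf1r at 998 ± 77.5 and Mrc1 at 690.1 ± 38.8 CPM. At least 2-fold below the macrophage library were 8 of the 11, against 16.9% of 12745 genes, and 1 was at least 2-fold above it. Adgre1 and Mrc1 were not among the 8. The macrophage list summed to 4029 and 4402 CPM, against 736 in the neutrophil and 10125 CPM in the macrophage library. Stromal and endothelial markers, 6 of 9 detected and with Lum at 0 reads, summed to 2577 CPM in replicate 1 and 764 CPM in replicate 2, led by Col1a2, Col1a1 and Sparc. Mast cell and basophil markers (4 of 6 detected, led by Prss34, Kit and Cpa3) summed to 116 and 65.0 CPM. Of the lymphoid markers, Cd3g stood at 20.1 and 25.1 CPM and Cd79a at 6.20 and 6.60 CPM in the eosinophil libraries, with Cd3e at 2 and 0 reads. The stromal sum and 9 of the 10 genes were higher in replicate 1, and its part in their levels was not tested.

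The genes whose profile over the 4 libraries lay nearest to the median profile of the 10 were Akap9, Lrrk2, Pdlim7, Pla2g4a and Rictor, at Euclidean distances of 0.355 to 0.554 on the log2(CPM + 1) scale. The 10 genes themselves lay 1.57 (S100a8) to 4.96 (Camp) from that median, so it describes none of them closely. Of 16 neighbours of the 10 genes outside the list, 12 were detected in both eosinophil libraries, against 47.5% of all genes, and Retnla was the highest of them. At 1 CPM or more were 14 of the 16 in the neutrophil library and 10 in the macrophage library.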

How the data were processed

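RNA was measured in 2 BALB/c libraries, made with a stranded messenger RNA kit per the labels' protocols. The authors deposited whole-number read counts per gene without normalization, 1 table per library, and such tables for the outside neutrophil and macrophage libraries. The submitters' processing notes name Trim Galore 0.4.2, STAR 2.5, Picard 1.89, featureCounts and mm9, without the role of each. Whether duplicate reads were removed, and which strand setting was used, is not given in the sources used here. In either outside table, 26 rows carry dates in place of gene names and stayed in the totals only (0.205% and 0.138% of counts), which left 25075 genes. Counts were divided by the file total to give CPM, so that 3 counts equal 0.0744 and 0.0985 CPM in the eosinophil, 0.469 in the neutrophil and 0.0281 CPM in the macrophage library. A gene was detected at 1 CPM or more, and set apart from an outside library when both eosinophil libraries were at least 2-fold from it, among genes at 1 CPM in at least 1 of the libraries compared. No p-value was computed. Spans, neighbours and promoter windows come from RefSeq (GRCm38.p6), with spans for 99.7% of genes. Named were all 10 genes, all regulators, the 3 highest genes of each other list and the 5 nearest profiles, and others where stated. The 10 genes, the 8 other lists (75 genes) and their rules were chosen with earlier results of these data known. One lymphoid marker, and the totals of its list, are not reported here. The peak lists are in mm9, for which no annotation was at hand, and were not used here. Python 3.11.15, scipy 1.17.1, edgeR 4.0.16 (for TMM factors) and DESeq2 1.42.0 (for its size factors) were used, with no count model, after tests on simulated data. Alternatives were other scalings, folds, minima and letters, and leaving out either library.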

Additional observations from a re-analysis of the deposited data

How the results depend on the processing

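Detection of all 10 genes and their 2-fold excess over the macrophage library held under every alternative run for them. The 5 genes 2-fold below the neutrophil library were 5 under each scaling and 2 at a fold of 4. The 3 genes 2-fold above it were 3 with TMM, with DESeq2 size factors, without the 20 highest genes and without either replicate, and 0 with the total of genes up to 5 kb or at a fold of 4; these alternatives for this count were chosen after seeing the data. The median implied share of 68.3% became 84.7% with TMM, 77.5% with DESeq2 size factors and 34.1% with the total of genes up to 5 kb, an alternative chosen after seeing the data. The lowest became 21.8%, 19.9% and 8.76%, and 15.7% after subtracting the macrophage level. The highest became 472.6%, 433% and 190%. The median of the other late list became 14.3%, 13.1% and 5.73%, and 12.004% without the 20 highest genes of each library. These scalings moved the median of all genes by 0.309, 0.183 and -1.004 on the log2 scale. Leaving out either replicate gave medians of 63.3% to 73.3%, lowest values of 16.4% to 17.9%, highest values of 356% to 407% and late medians of 11.3% to 11.7%. With the letters GAGGAA in place of GAGGAAGT, 5 genes matched in place of 3, while the share of all windows rose from 2.44% to 23.3%. No paired analysis was possible because only 1 group has RNA libraries in this series. Peaks at the genes were not run. The 6390310 counts of the neutrophil library, of which there was 1, limit every share.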
